A study of Mus musculus with 36 samples.

Results

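Nuclear receptors are transcription factors that read small fat-soluble signals. Most carry a zinc-finger domain that binds DNA and a pocket that holds a hormone, a vitamin derivative, a bile acid, a fatty acid or a drug, and many act as a pair with a retinoid X receptor. In liver they set bile acid, lipid and drug metabolism, and in fat they direct adipocyte formation and heat production. The family was taken as 39 mouse genes, from the thyroid hormone receptors to Nr0b2, and their probe sets were found by exact gene symbol on a whole-genome Affymetrix expression array. Of these, 38 genes were measured by 105 probe sets, out of 18193 genes in all. Nr1h2 was not analysed here. The probe set with the highest mean over the 36 arrays stands for each gene, and 25 genes had further probe sets.

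The animals were male mice of the outbred ddY stock, bought at 5 weeks of age. The CAAM mice (n = 5) received an amino acid mixture made to resemble casein, at 1.8% and 37.5 µL per g body weight, by gavage once a day for 5 days. The DW mice (n = 7) received water in the same way. All were killed 4 h after the last dose, with food taken away that morning, and RNA of the liver, the white fat (WAT, white adipose tissue) and the brown fat (BAT) of each mouse was hybridised, giving 5 CAAM and 7 DW arrays per tissue. CAAM mice numbered 1 and 3 are not in the series, and the study left out CAAM animals with abnormal livers. A CAAM mouse and a DW mouse with the same number are different animals.

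Values are distribution free weighted (DFW) scores, deposited by the authors. Their scale is not stated, and a score difference is not read as a log2 fold change. Each tissue behaved as a separately summarised set. Within a tissue the median SD between mice was 1.08e-05 in liver, 1.42e-05 in WAT and 7.38e-06 in BAT. Between tissues, the means of 99.1% to 99.7% of all probe sets differed by more than the range of the mice within either tissue. Tissue differences are therefore given by size, with 1 score unit as the limit and no p-value, and CAAM differences are given within a tissue, in units of the SD within groups. In the probe set shown for each of the 38 genes, the 12 mice of a tissue lay within 0.0232 units of each other in every tissue. A level printed to 3 digits thus holds for nearly every mouse, CAAM and DW alike. Some other probe sets ran wider, such as 1 of Nr4a2 in BAT, from 6.82 to 6.91. Markers matched the labels. The 3 hepatocyte markers measured were 7.69 to 8.45 units higher in liver than in BAT or WAT. Ucp1, Cidea and Cox8b were 6.06 to 7.73 units higher in BAT than in WAT. Of the 2 white adipocyte markers measured, BAT minus WAT was -3.99 for Lep (leptin). It was only -0.50 for Adipoq, which was high in both fats and does not set them apart. The arrays measure bulk tissue, so fewer cells of a type and less RNA per cell cannot be told apart.

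The family differed most between liver and fat. In DW mice 9 members were at least 1 unit higher and 3 at least 1 unit lower in liver than in WAT, where 6.02% and 10.7% of all genes were higher and lower by that much. Against BAT, 8 members were higher and 3 lower in liver, beside 7.57% and 6.26% of all genes. Between the fats, 3 were higher and 2 lower in BAT than in WAT, beside 2.52% and 6.94% of all genes. After quantile normalization the split between the fats was 7 higher and 1 lower, and after centring each array on its median it was 5 and 1. These settings moved the median BAT minus WAT difference of all probe sets to 0.01 and 0.04, against -0.09 as deposited. For liver against WAT the split was 9 higher and 1 lower after quantile normalization, and the median of all probe sets was 0.01 then and 0.06 after centring, against -0.05 as deposited. The median difference over the 38 members was 0.21 units for liver minus WAT and 0.14 for liver minus BAT, against -0.05 and 0.03 over all genes. For BAT minus WAT the medians were -0.04 and -0.12. The counts were the same 12, 11 and 5 members in the CAAM mice, whose arrays share the tissue sets and so are no independent repeat. In all, 17 members passed the limit in at least 1 comparison and 21 in none. The members nearest the limit were Nr2f6 (1.19) and Esrrb (0.66) for higher in liver than WAT, Esr1 (-1.14) and Nr2f1 (-0.93) for lower, Nr0b2 (1.67) and Nr2f2 (0.96) for higher in liver than BAT, and Esrra (-1.05) and Nr4a2 (-0.97) for lower. Between BAT and WAT they were Rarb (1.47) and Esrra (0.95) for higher, and Nr3c1 (-1.05) and Nr2f2 (-0.70) for lower.

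**Figure D1:**
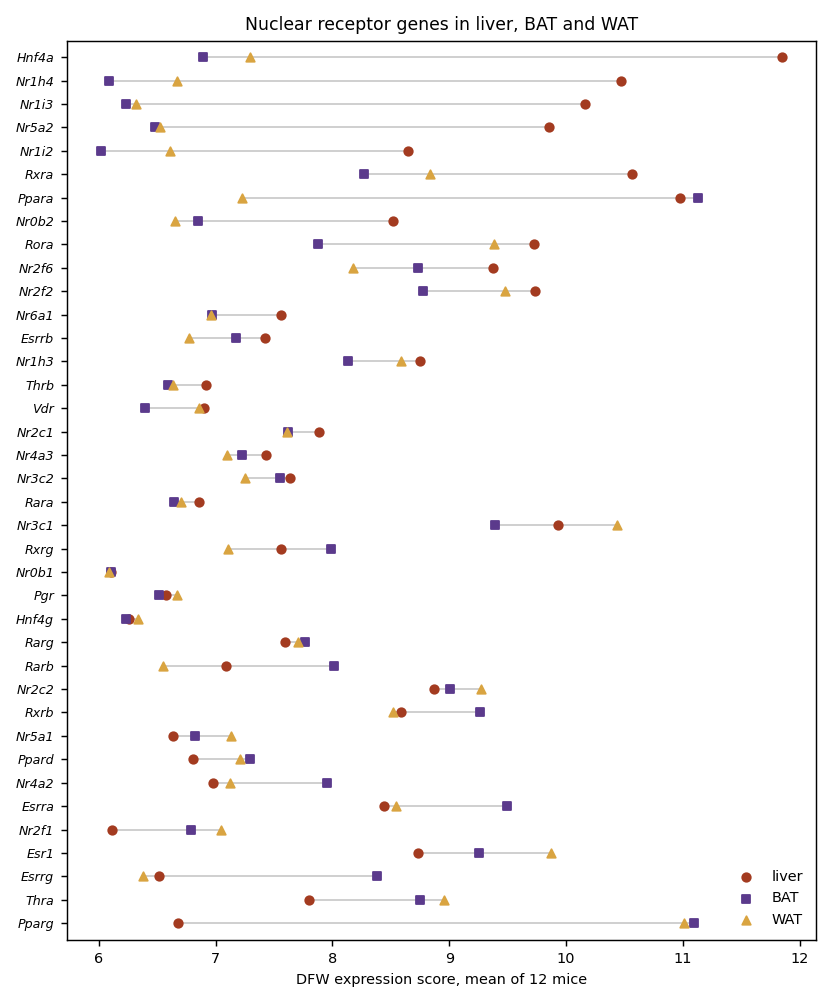
Scores of the 38 nuclear receptor genes (rows, 1 probe set each) in liver, BAT and WAT, each point the mean of 12 mice (5 CAAM and 7 DW), whose range is narrower than the symbol; the horizontal axis is the DFW score. Hnf4a, Nr1h4, Nr1i3, Nr5a2 and Nr1i2 stand far to the right in liver only, Ppara in liver and BAT, and Pparg in both fats.

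The liver group held 7 receptors, higher by at least 1 unit in liver than in both fats. Hnf4a, a factor of hepatocyte identity that binds DNA as a pair of itself, scored 11.9 in liver, 6.89 in BAT and 7.29 in WAT, and 3 of its 4 probe sets passed the limit against both fats. In WAT its 12 mice spread over 0.0168 units, far wider than in liver, where the range was 0.000153. Nr1h4, the bile acid receptor FXR, scored 10.5 in liver, 6.09 in BAT and 6.67 in WAT. Liver stood alone for each of these genes, and the fats lay within 1 unit of each other. Nr1i3 (CAR), a sensor of drugs and other foreign compounds, scored 10.2 in liver, 6.23 in BAT and 6.32 in WAT. Nr1i2 (PXR), the other receptor of that kind, scored 8.65, 6.02 and 6.61 in the same order. Both thus followed the pattern of Hnf4a, and both probe sets of Nr1i2 passed. Nr5a2 (LRH-1), which acts on bile acid and cholesterol genes, scored 9.86 in liver, 6.48 in BAT and 6.52 in WAT, with 3 of 4 probe sets past the limit. Nr0b2 (SHP), which lacks a DNA-binding domain and holds back other receptors, scored 8.52 in liver, 6.85 in BAT and 6.65 in WAT. Among the liver levels of the 38 probe sets shown its 12 mice had the widest range, 0.0148 units. Rxra, the common partner receptor, was present in all tissues at 10.6 in liver, 8.27 in BAT and 8.83 in WAT, and 2 of its 3 probe sets passed. Liver was highest for all 7, by 1.67 units or more over BAT and 1.73 or more over WAT.

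Upstream sequence is shown for 3 receptors of the liver group and for Pparg, high in the fats, so that a reader can see the letters near the starts of genes with opposite tissue patterns. These are the 250 bases before the transcription start in RefSeq, build GRCm38.p6, written in the direction of the gene. Where RefSeq lists several starts, that with the most matches to the motif is shown. The starts used in these tissues were not measured. Capitals mark the motif, on either strand, which is GTTAAT (a core of the Hnf1 motif) for Hnf4a and Nr1h4, TCAAGG (the core bound by Nr5a2 and the Esrr receptors) for Nr0b2, and AGGTCA (the core bound by many nuclear receptors) for Pparg.
Hnf4a (chr2:163546905-163547154, plus strand): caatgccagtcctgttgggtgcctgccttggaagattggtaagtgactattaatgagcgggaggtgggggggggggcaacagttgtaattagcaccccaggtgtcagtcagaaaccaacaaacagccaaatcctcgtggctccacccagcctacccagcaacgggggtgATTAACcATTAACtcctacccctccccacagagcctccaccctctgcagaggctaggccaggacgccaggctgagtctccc
Nr1h4 (chr10:89506659-89506908, minus strand): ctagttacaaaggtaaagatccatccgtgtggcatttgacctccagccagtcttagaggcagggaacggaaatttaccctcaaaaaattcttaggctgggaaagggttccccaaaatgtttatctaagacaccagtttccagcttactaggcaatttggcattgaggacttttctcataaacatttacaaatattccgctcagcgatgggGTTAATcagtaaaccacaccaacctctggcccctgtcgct
Nr0b2 (chr4:133553126-133553375, plus strand): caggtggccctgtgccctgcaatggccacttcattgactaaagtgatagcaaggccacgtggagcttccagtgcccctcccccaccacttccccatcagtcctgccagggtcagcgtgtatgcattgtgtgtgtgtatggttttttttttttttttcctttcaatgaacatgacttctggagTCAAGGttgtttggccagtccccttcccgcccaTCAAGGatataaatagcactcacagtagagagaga
Pparg (chr6:115360894-115361143, plus strand): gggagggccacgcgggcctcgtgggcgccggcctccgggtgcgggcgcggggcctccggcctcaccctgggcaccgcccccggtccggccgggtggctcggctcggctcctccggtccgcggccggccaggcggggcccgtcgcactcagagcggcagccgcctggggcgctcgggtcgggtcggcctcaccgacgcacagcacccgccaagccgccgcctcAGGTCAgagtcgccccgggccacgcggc
The Hnf4a window held 2 matches side by side, at 81 and 74 bases before the start. Both lie on the other strand, so the letters printed read ATTAAC. Nr1h4 held 1 at 40 bases before the start, Nr0b2 held 2 at 68 and 35, and Pparg held 1 at 28. None of these matches overlapped another. AGGTCA was also in the Nr1h4 window, on the other strand and not marked, and in windows of Nr5a2 and Rxra of the liver group. GTTAAT occurred in 6.43% of the 32851 upstream windows in RefSeq, TCAAGG in 12.5% and AGGTCA in 14.0%. Of the 55 windows of the 35 members that RefSeq lists here, 5 held GTTAAT, 6 held TCAAGG and 10 held AGGTCA, shares of 9.09%, 10.9% and 18.2%. The longer Hnf4 motif CAAAGTCCA was in 0.384% of all windows and in none of the members' windows. A match describes letters only.

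Ppara, the receptor of fatty acids that drives their oxidation, was high in liver and BAT. It scored 11.0 in liver, 11.1 in BAT and 7.23 in WAT, so that liver and BAT were 3.75 and 3.90 units above WAT, and liver minus BAT was -0.15. Its 3 probe sets all passed against WAT, at 2.45 to 3.75 units for liver and 2.10 to 3.90 for BAT. Nr2f6, an orphan receptor of the COUP group, was 1.19 units higher in liver than in WAT by the probe set shown and 0.16 by its other one, and averaged over both it was 0.68.

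Pparg, the receptor that directs adipocyte formation, gave the reverse of the liver pattern. It scored 6.68 in liver, 11.1 in BAT and 11.0 in WAT, with a liver difference of -4.41 from BAT and -4.34 from WAT. BAT and WAT differed by 0.08 units. Thra, a thyroid hormone receptor, scored 7.80 in liver, 8.75 in BAT and 8.96 in WAT, and Esr1, the oestrogen receptor alpha, 8.73, 9.26 and 9.87. Liver minus WAT was -1.15 and -1.14 for these genes, and for each 2 of 3 probe sets passed. After quantile normalization both differences fell under the limit (-0.87 and -0.95), as did that of Esr1 averaged over its probe sets (-0.94). Esr1 had the widest range of the 38 probe sets shown, 0.0232 units over the 12 WAT arrays.

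A further 5 members differed by 1 unit between BAT and at least 1 other tissue. Esrrg, an orphan receptor that with Esrra switches on mitochondrial genes, scored 6.52 in liver, 8.38 in BAT and 6.38 in WAT. BAT was thus 2.01 units above WAT, and 2 of its 3 probe sets passed. Esrra scored 8.44 in liver, 9.49 in BAT and 8.55 in WAT, and liver minus BAT was -1.05 here but -0.70 averaged over its 2 probe sets. Rarb, a retinoic acid receptor, scored 7.08 in liver, 8.01 in BAT and 6.55 in WAT, and BAT was 1.47 units above WAT. Rora, an orphan receptor of the clock and of lipid metabolism, stood out as low in BAT against both other tissues. It scored 9.73 in liver, 7.88 in BAT and 9.39 in WAT, with a BAT minus WAT difference of -1.51 in the probe set shown. Of its 9 probe sets 6 passed for lower in BAT than in WAT and 4 for higher in liver than in BAT, and averaged over all 9 the difference between the fats was -0.84 and that between liver and BAT 0.97. Nr3c1, the glucocorticoid receptor, scored 9.93 in liver, 9.39 in BAT and 10.4 in WAT. BAT minus WAT was -1.05, with 2 of 6 probe sets past the limit, but -0.83 after quantile normalization, -0.91 after centring and -0.52 averaged over its probe sets. For BAT minus WAT, Nr4a2 (1.05), Rxrg (1.11), Rxrb (1.09) and Esrra (1.29) passed the limit after quantile normalization, and Rxrg (1.02) and Esrra (1.08) after centring, but none of them as deposited.

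Skeletal muscle genes moved with BAT. Of 6 measured, 4 were at least 1 unit higher in BAT than in WAT, with Acta1 3.92 units higher. Their mean score per array ran from 6.63 to 11.1 in BAT of CAAM mice and from 6.91 to 11.5 in BAT of DW mice, against 6.50 to 6.51 in WAT of either group. Without the 4 BAT arrays high in these genes, the BAT minus WAT difference was 2.01 for Esrrg and 3.90 for Ppara, as with them. Epididymal genes were likewise uneven in WAT, with array means of 6.30 to 12.3 in CAAM mice and 6.57 to 9.34 in DW mice. Without the 4 WAT arrays high in these, the liver minus WAT difference of Hnf4a was 4.56, as with them. The arrays of a tissue differ too little in these receptors for leaving some out to change such differences. What muscle or epididymal tissue adds to them was therefore not tested.

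**Figure D2:**
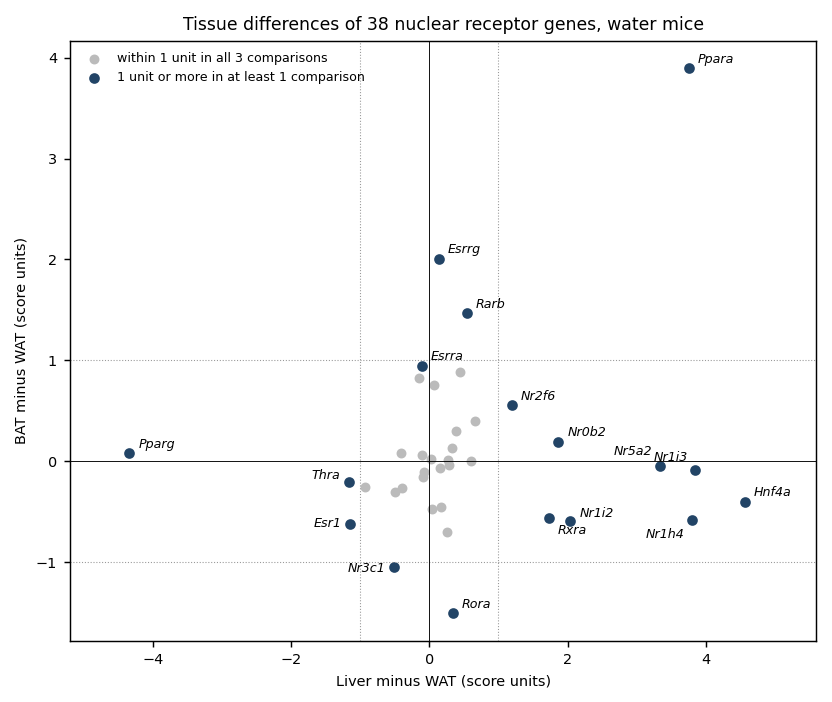
Difference between tissues for the 38 genes in DW mice, liver minus WAT on the horizontal axis and BAT minus WAT on the vertical axis, in score units; dotted lines mark 1 unit. Named genes differ by 1 unit or more in at least 1 of 3 comparisons. Ppara stands alone at upper right (3.75 and 3.90), the liver group lies to the right, within 1 unit of 0 on the vertical axis, and Pparg lies far left.

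The remaining 21 members stayed within 1 unit in all 3 comparisons by the probe set shown. Among their other probe sets, 1 of 6 for Nr2c2 passed as lower in liver (-1.06 for liver minus WAT and -1.07 for liver minus BAT), and 1 of 6 for Nr2f2 as higher in liver than in BAT (1.22). By role they were the thyroid receptor Thrb, the retinoic acid receptors Rara and Rarg, Ppard, the oxysterol receptor Nr1h3 (LXR alpha), the vitamin D receptor Vdr, Hnf4g, the partners Rxrb and Rxrg, the orphan receptors Nr2c1, Nr2c2, Nr2f1, Nr2f2, Nr4a2, Nr4a3 and Nr6a1, the steroid and steroid-like receptors Esrrb, Nr3c2 (mineralocorticoid) and Pgr (progesterone), and the gonadal and adrenal factors Nr5a1 and Nr0b1. Nr1h3 scored 8.75 in liver, 8.13 in BAT and 8.59 in WAT, and Nr2f2, a COUP orphan receptor, 9.74, 8.78 and 9.48. For both, BAT was the lowest tissue. Rxrb scored 8.58, 9.27 and 8.51 in liver, BAT and WAT, Rxrg 7.56, 7.99 and 7.11, and Nr4a2 6.98, 7.95 and 7.12. BAT was the highest tissue for these 3 in the probe sets shown, while BAT minus WAT ran from -0.38 to 0.84 over the 6 probe sets of Nr4a2. Nr2f1 scored 6.11, 6.79 and 7.04 in liver, BAT and WAT, Nr6a1 7.56, 6.97 and 6.96, and Esrrb 7.42, 7.17 and 6.77. Vdr scored 6.90, 6.39 and 6.86, Ppard 6.81, 7.29 and 7.21, and Thrb 6.92, 6.59 and 6.63. In the probe sets shown, liver was thus highest for Nr6a1, Esrrb, Vdr and Thrb and lowest for Nr2f1 and Ppard, but other probe sets gave -0.65 for Vdr and 0.12 for Ppard for liver minus WAT, and -0.40 for Nr6a1 and -0.11 for Esrrb for liver minus BAT. Nr2c2 scored 8.87, 9.004 and 9.27 in the same order, and Rarg 7.595, 7.76 and 7.71. Hnf4g, Pgr and Nr0b1 were at or below the median probe set of each tissue, and Nr0b1 scored 6.10, 6.11 and 6.08. No member had probe sets that passed the limit in opposite directions.

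Genes that work with the receptors were counted in the same way. Of all genes, 6.02% were higher and 10.7% lower by 1 unit in liver than in WAT. For liver against BAT the shares were 7.57% and 6.26%, and for BAT against WAT 2.52% and 6.94%. The medians over all genes were -0.05, 0.03 and -0.12 units. Whether the lists below differ from these shares was not tested. Of 22 coregulators measured, 0 were higher and 6 lower by 1 unit in liver than in WAT, 0 higher and 2 lower in liver than in BAT, and 2 higher and 2 lower in BAT than in WAT. Their median difference was -0.47, -0.36 and -0.47 units in the same order. Ppargc1b and Ppargc1a, coactivators of the Ppar and Esrr receptors, were 3.05 and 1.51 units higher in BAT than in WAT and gave -2.86 and -1.49 for liver minus BAT. Nrip1, a corepressor, gave -1.93 for BAT minus WAT and -2.78 for liver minus WAT. Of 21 genes that make or remove ligands, 11 were higher and 2 lower in liver than in WAT, 11 higher and 0 lower in liver than in BAT, and 0 higher and 3 lower in BAT than in WAT, with medians of 1.21, 1.04 and -0.03 units. Those higher in liver include the bile acid enzymes Cyp8b1 (4.21 above WAT), Cyp7b1 (4.16), Cyp27a1 (3.82) and Cyp7a1 (2.33), and Hsd11b1, which regenerates glucocorticoid (2.11). Sult1e1, which inactivates oestrogen, was the reverse, at -2.77 for liver minus WAT and -2.71 for BAT minus WAT. Of 32 known target genes, 9 were higher and 11 lower in liver than in WAT, 9 higher and 8 lower in liver than in BAT, and 4 higher and 5 lower in BAT than in WAT, with medians of -0.39, 0.08 and -0.14. Cyp3a11, a target of Nr1i2, was 8.46 units higher in liver than in WAT, and Adipoq, a target of Pparg, gave -8.43. Pdk4, a target of Ppara and the Esrr receptors, was 4.13 units higher in BAT than in WAT but gave -2.60 for liver minus WAT, although Ppara was high in both liver and BAT.

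No receptor differed between CAAM and DW mice in the adjusted test. By limma, with p-values adjusted by Benjamini-Hochberg over 45037 probe sets, 0 of 105 member probe sets passed in liver, WAT or BAT, as did 0 of all (0%). The lowest adjusted p of a member was 0.674 in liver, 0.9999 in WAT and 0.645 in BAT. At an unadjusted p under 0.05, 3 member probe sets were higher and 4 lower in CAAM liver (2.86% and 3.81%, beside 2.74% and 4.03% of all). In WAT 3 were higher and 2 lower (2.86% and 1.90%, beside 1.97% and 2.0%), and in BAT 8 higher and 1 lower (7.62% and 0.952%, beside 3.77% and 2.64%). In BAT 6 of the 8 belonged to Rora. Of the 38 genes 13 in liver, 16 in WAT and 16 in BAT had a higher mean in CAAM mice, but 9, 22 and 38 after quantile normalization and 3, 36 and 38 after centring. Over all genes 44.6%, 49.9% and 50.5% were higher as deposited. Those shares after quantile normalization and after centring are not given here. Array medians in BAT ran from 6.78036 to 6.78179, far wider than the median SD between mice there (7.38e-06). Centring thus moves all probe sets of an array together, and the rescaled counts are not read as a trait of the family. After centring, 26 of the 38 had an unadjusted p under 0.05 in liver (68.4%, beside 73.0% of all probe sets), against 3 as deposited. Rank products, the test named in the study's methods, called 3 member probe sets higher and 1 lower in CAAM liver (2.86% and 0.952%, beside 1.61% and 1.17% of all), 2 lower in CAAM WAT (1.90%, beside 1.94% lower and 0.822% higher) and 4 higher and 1 lower in CAAM BAT (3.81% and 0.952%, beside 1.18% and 2.06%). It ranks raw differences and so favours probe sets that vary widely among mice. The 11 calls were on probe sets in the top 0.24% to 2.94% by SD, and none of them was kept when differences were divided by the SD.

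**Figure D3:**
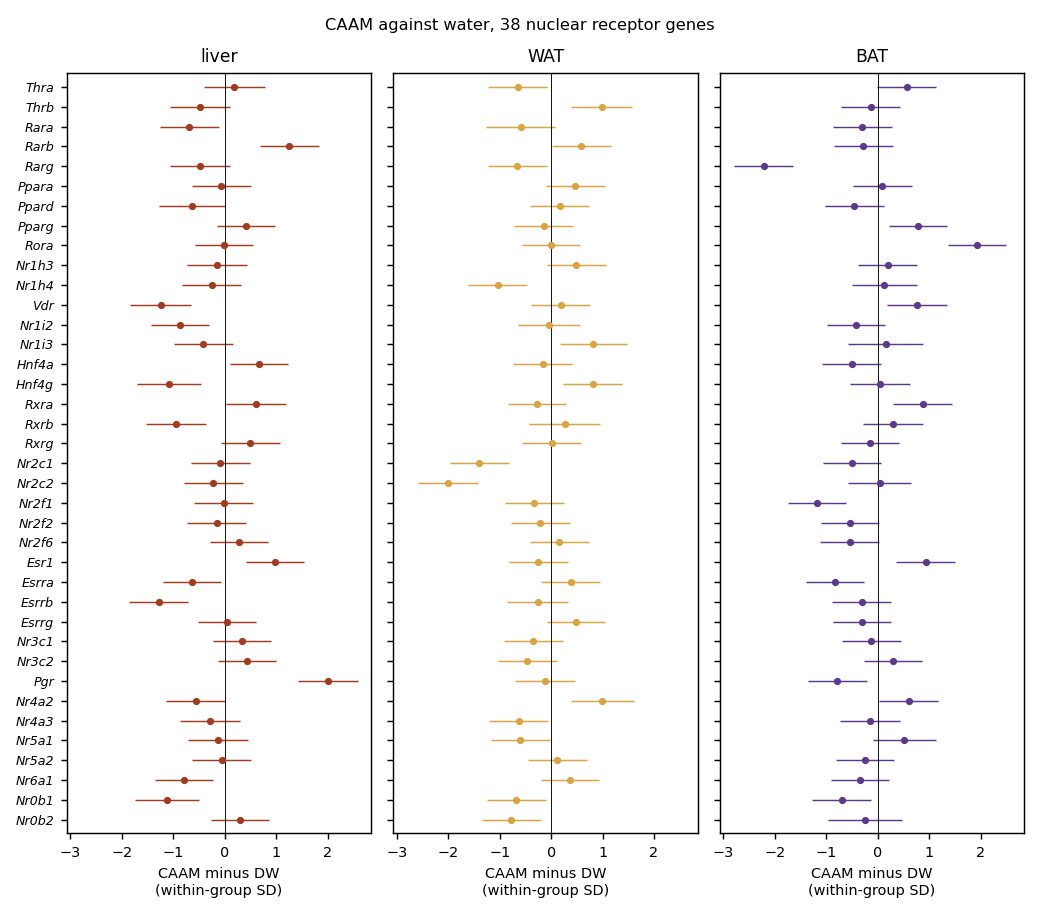
CAAM minus DW for the 38 genes in liver, WAT and BAT, in units of the SD within groups (points) with the standard error of limma (bars); 5 CAAM and 7 DW mice. Values run from -2.22 (Rarg in BAT) to 2.01 (Pgr in liver), and no gene passed the adjusted test; after centring each array on its median Rarg in BAT and Pgr in liver change sign.

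In liver rank products called Esr1 (2 probe sets) and Hnf4a (1) higher and Nr0b2 lower in CAAM mice. For Esr1, in the probe set with the lower p, the CAAM mice stood at 2.16, -0.10, 1.76, 0.48 and 0.85 SD from the DW mean, against -1.60 to 1.79 (median 0.20) in DW mice. The groups overlapped, 4 of 5 CAAM mice were above the DW median, and the difference was 1.03 SD (limma adjusted p = 0.773, exact permutation p = 0.106). The calls on Esr1 were lost without CAAM mouse 2, 5 or 7, and without DW mouse 6 the difference was 1.59. Hnf4a differed by 0.51 SD in another probe set than that of its levels (adjusted p = 0.915), and by 0.23 without DW mouse 3, 0.28 without CAAM mouse 4, 0.29 without CAAM mouse 5 and 0.82 without DW mouse 6. Nr0b2, at -0.01, 0.30, -0.07, -1.03 and 2.30 SD in CAAM mice and -1.56 to 0.90 in DW mice, was called lower although its mean was 0.30 SD higher, so that the ranks and the mean do not point one way (adjusted p = 0.959). The lowest limma p-values in liver were those of Pgr, Esrrb and Rarb, with adjusted p of 0.674, 0.735 and 0.736. Pgr differed by 2.01 SD, with 5 of 5 CAAM mice above the DW median (exact permutation p = 0.0051), but by -1.09 after centring. Its score was at or below the median probe set in every array. The CAAM mice lay 9.14e-06 to 2.87e-05 score units above the DW mean of Pgr. Esrrb differed by -1.28 SD (exact permutation p = 0.0025), and it was the only one of the 105 probe sets in any tissue whose groups did not overlap, beside 199 of all 45037 probe sets in liver. Its CAAM mice ran from -1.61 to -1.04 SD and its DW mice from -0.99 to 2.67, and without DW mouse 7 the difference was -1.95. Rarb differed by 1.26 SD, with 5 of 5 CAAM mice above the DW median (exact permutation p = 0.0606), and by 1.90 without DW mouse 6. Macrophage markers moved in the same arrays. Rank products called 4 of 5 higher in CAAM liver, beside 1.61% of all probe sets. The mean score of the 5 markers ran from 8.60 to 8.61 in CAAM mice and from 8.59 to 8.60 in DW mice. Their part in the values above was not tested.

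In WAT rank products called only Esr1 lower, by 2 probe sets. In the one shown, CAAM mice stood at -1.25, -0.58, 1.47, -1.77 and 0.85 SD and DW mice at -0.92 to 1.04 (median -0.13). The CAAM mice thus lay on both sides of the DW mice, and the difference was -0.25 SD (adjusted p = 0.9999). Without the 4 WAT arrays high in epididymal genes the call was lost and the difference was 0.14. Nr2c2 (TR4) differed by -2.002 SD (exact permutation p = 0.0051), Nr2c1 (TR2) by -1.40 (exact permutation p = 0.0455) and Nr1h4 by -1.04 (exact permutation p = 0.111), but each changed sign after quantile normalization and after centring. Without CAAM mouse 4 the Nr2c1 value was -3.04, and without DW mouse 1 that of Nr1h4 was -1.88. In Nr2c2 all 5 CAAM mice, from -3.85 to -0.87 SD, were below the DW median. Nr4a2, named here after its values were seen, was higher in 5 of its 6 probe sets, and in 3 of them the unadjusted p was under 0.05. In that with the smallest (2.13 SD, exact permutation p = 0.0076) the CAAM mice stood at 2.31, 1.93, 0.31, 2.53 and 3.57 SD, against -1.59 to 1.01 in DW mice. In a further probe set CAAM mice 6 and 7 stood at 3.39 and 2.06 SD, and in another at 3.15 and 1.91. The other CAAM mice stood between 0.28 and 0.66 SD in both. The WAT arrays of CAAM mice 6 and 7 are among the 4 high in epididymal genes, and their part in these values was not tested. After quantile normalization 5 of 6 Nr4a2 probe sets were still higher, but none had a p under 0.05. All 4 mesothelial markers measured were called lower in CAAM WAT by rank products, beside 1.94% of all probe sets. The mean score of the 4 markers ran from 8.03 to 8.05 in CAAM mice and from 8.04 to 8.07 in DW mice. Their part in these values was not tested.

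In BAT the Nr4a receptors, immediate-early genes that respond to adrenergic and other acute signals, gave 4 of the 5 rank product calls. Rank products called 3 of 6 Nr4a2 probe sets and 1 of 3 Nr4a3 probe sets higher in CAAM mice. In Nr4a2, in the called probe set with the lowest limma p, CAAM mice 2, 4, 5, 6 and 7 stood at 1.33, 1.12, 1.21, -0.78 and 1.88 SD. DW mice 1 to 7 stood at 0.83, 1.83, -0.28, -0.97, -0.38, -0.80 and -0.23. CAAM mice 2, 4, 5 and 7 and DW mice 1 and 2 were high and all others low, so the groups overlapped, and the difference was 0.95 SD (limma adjusted p = 0.851, exact permutation p = 0.154). Nr4a3, in its called probe set, gave 1.04, 0.93, 2.02, -0.40 and 2.69 SD in CAAM mice and -0.92 to 1.58 (median -0.08) in DW mice. CAAM mouse 6 was again the low one, and the difference was 1.26 SD (limma adjusted p = 0.780, exact permutation p = 0.0631). Of the 3 Nr4a3 probe sets 2 were higher in CAAM BAT, and the 1 used for its levels was slightly lower. After quantile normalization all 3 were higher. Without CAAM mouse 6 the differences were 1.67 for Nr4a2 and 1.95 for Nr4a3, and without DW mouse 2 that of Nr4a2 was 1.53. The call on Nr4a3 and those on 2 of the Nr4a2 probe sets were kept whichever of the 12 mice was left out, and also without the 4 BAT arrays high in muscle genes. In liver 6 of 6 Nr4a2 probe sets were on the lower side (5 of 6 after quantile normalization), with unadjusted p of 0.238 to 0.595. After centring all 6 were lower with an unadjusted p under 0.05, as were 72.6% of all probe sets in liver (0.335% were higher).

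**Figure D4:**
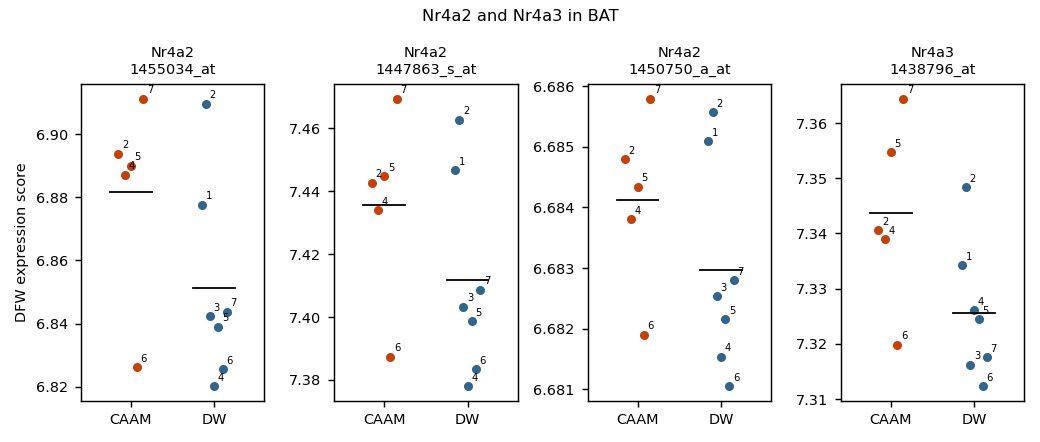
DFW scores of 3 Nr4a2 probe sets and 1 Nr4a3 probe set in BAT, CAAM mice left and DW mice right, each point 1 mouse with its number and the bar the group mean (n = 5 and 7); each panel has its own vertical axis. CAAM mouse 6 lies among the low DW mice, and DW mice 1 and 2 are the highest DW mice in each panel.

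Rora in BAT had 6 of the 9 member probe sets with an unadjusted p under 0.05. In CAAM mice 6 of 9 were higher with an unadjusted p under 0.05, by 1.26 to 1.93 SD, and the other 3 differed by -0.43 to -0.16 SD. The probe set of its levels gave 1.34, 1.06, 2.81, 2.002 and 2.45 SD in CAAM mice, against 1.56, -1.06, 0.82, -1.23, -1.11, 0.93 and 0.07 in DW mice 1 to 7. All 5 CAAM mice were above the DW median, though DW mouse 1 lay within their range, and the difference was 1.93 SD (limma adjusted p = 0.671, exact permutation p = 0.0101). In a further probe set it was 1.84 SD (exact permutation p = 0.0076). Probe sets of 1 gene share the same RNA and are not separate evidence. After quantile normalization or centring all 9 were higher, as were all 38 members, and none of the 9 had a p under 0.05. The share of all genes higher under these settings is not given here, so this is not read as a trait of Rora or of the family. In liver 4 of the 9 were higher (1 after centring), and in WAT 6 (4 after quantile normalization and 9 after centring). Rank products called no Rora probe set.

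**Figure D5:**
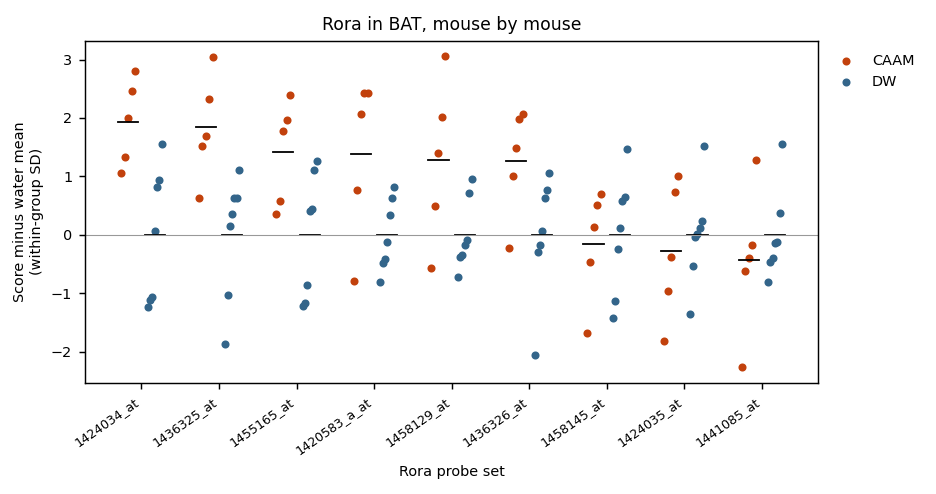
Scores of the 9 Rora probe sets in BAT as the distance from the DW mean in units of the SD within groups, CAAM mice left and DW mice right of each tick (n = 5 and 7), with bars for group means. In the first 6 probe sets the CAAM mean is 1.26 to 1.93 SD above the DW mean, and in the last 3 it is slightly below; after quantile normalization or centring all 9 are above.

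In BAT, Rarg differed by -2.22 SD (limma adjusted p = 0.645, exact permutation p = 0.0126) and Nr2f1 by -1.18 (exact permutation p = 0.0758), but both were on the higher side after quantile normalization and after centring. Rarg stood at -3.23, -3.003, -0.0015, -2.74 and -2.11 SD in CAAM mice and at -1.05 to 1.12 in DW mice, so CAAM mouse 5 lay among the DW mice. Without that mouse the Rarg value was -4.23, and without CAAM mouse 4 that of Nr2f1 was -2.60. Esrrg was called lower by rank products in 1 of 3 probe sets, where CAAM mouse 5 stood at -3.46 SD and the other 4 between -0.999 and -0.03, against -0.83 to 0.63 in DW mice. That call was kept whichever of the 12 mice was left out, CAAM mouse 5 included. It was lost without the 4 BAT arrays high in muscle genes and after quantile normalization. All 6 muscle genes were called lower in CAAM BAT, beside 2.06% of all probe sets. The 6 genes were high in 1 of 5 arrays of CAAM BAT, against 3 of 7 in DW mice. Their part in the Esrrg value was not tested beyond this.

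Of the receptors' coregulators, rank products called 1 of 22 higher and 1 lower in CAAM BAT, 1 lower in liver and none in WAT. Of the ligand genes it called 2 of 21 higher, 1 lower and 1 both ways in liver, 1 lower in WAT, and 2 higher and 1 lower in BAT. Of the 32 target genes it called 4 higher, 4 lower and 2 both ways in liver, 2 higher and 1 lower in WAT, and 6 higher and none lower in BAT. Of all probe sets it called 1.61% higher and 1.17% lower in liver, 0.822% and 1.94% in WAT, and 1.18% and 2.06% in BAT. The lists hold the probe set with the highest mean per gene, so those shares are not a matched background. Limma passed none of the listed genes, with a lowest adjusted p of 0.642. Sgk1 and Per1, which glucocorticoid induces through Nr3c1, were the only target genes called higher in all 3 tissues. The Sgk1 difference was 2.14 SD in liver (limma adjusted p = 0.642), 1.10 in WAT and 1.57 in BAT, with 5 of 5 CAAM mice above the DW median in each. In liver the CAAM mice stood at 0.86, 4.07, 1.73, 2.17 and 1.90 SD and the DW mice at -0.80 to 1.501. For Per1, also a clock gene, it was 0.93 SD in liver, 1.20 in WAT and 2.201 in BAT (limma adjusted p = 0.645), where CAAM mice stood at 1.34 to 3.07 SD and DW mice at -0.93 to 2.09. DW mouse 6 was the highest DW mouse for both genes in every tissue. The WAT calls on both genes were lost without the 4 WAT arrays high in epididymal genes, and all were lost when differences were divided by the SD. Tsc22d3, a further glucocorticoid target, was called higher in liver (1.48 SD) and BAT (0.80 SD), but Fkbp5 was called lower in liver and WAT, where it differed by 0.06 and -0.04 SD, and higher in BAT (0.79 SD). Nr3c1 itself was not called in any tissue. These genes were picked from the list after their values were seen.

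Whether the CAAM difference of a member varied between tissues was tested with limma on the within-mouse differences. None of 105 probe sets passed for liver minus WAT, liver minus BAT or BAT minus WAT, with lowest adjusted p of 0.862, 0.597 and 0.844. The lowest of these was that of Pgr, and 4, 8 and 4 probe sets had an unadjusted p under 0.05 in the same order (3.81%, 7.62% and 3.81%, beside 5.38%, 6.19% and 5.57% of all).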

How the data were processed

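RNA of 36 tissue samples was hybridised to Affymetrix whole-genome mouse arrays, 1 array per sample. The authors summarised the arrays by the distribution free weighted method (R 2.7.2 per the submitters' processing notes), and each deposited value is a score whose scale and floor are not stated. Whether other arrays entered that step is not given in the sources used here. Of 45101 rows, 64 control probe sets were left out. Gene symbols came from the platform annotation, and 34945 probe sets had 1 symbol. The members and gene lists were chosen with earlier results of these data known.

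Between tissues, limma 3.58.1 (R 4.3.3) passed 38 of 38 members, and each tissue behaved as summarised apart, so only the size limit of 1 score unit was used. CAAM and DW were compared within each tissue by limma with Benjamini-Hochberg adjustment, and by rank products over 35 pairs with 100 permutations, called where the estimated share of false positives was under 0.05. Named genes were the 5 largest called tissue differences in each direction, up to 6 rank product calls per tissue, and the 3 lowest limma p-values per tissue. The methods were run on simulated data with planted changes larger than any CAAM difference of the 38 genes in SD units. That run therefore does not show what is called at the sizes found here. That samples of a tissue are separate mice comes from the labels, and the number of arrays limits the precision. Alternatives were quantile normalization, centring, dim probe sets left out, other size limits, the mean of probe sets, 1 fit of all arrays, and arrays left out.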

Additional observations from a re-analysis of the deposited data

Results flagged for a closer look

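Of 108 groups of 5 or 7 mice checked for a mouse far from the rest, 5 held one, where chance alone gives about 5%. The value is the gap to the nearest other mouse as a share of the whole range. In CAAM mice these were mouse 2, lowest for Pparg in BAT (0.764), mouse 5, lowest for Esrrg in BAT (0.718), and mouse 6, lowest for Nr4a2 in BAT (0.717). In DW mice they were mouse 6, highest for Esr1 in liver (0.602), and mouse 7, highest for Esrrb in liver (0.634). No difference between tissues in the CAAM response passed its test.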

How the results depend on the processing

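Between tissues, 5 (BAT against WAT), 12 (liver against WAT) and 11 (liver against BAT) members passed, in DW as in CAAM mice, and these counts stayed the same whichever mouse was left out, with the mouse as a replicate block, and without the arrays high in muscle or epididymal genes. The mice of a tissue differed by less than any member's distance from the limit, so these settings could not change a count. The counts were 8, 10 and 12 after quantile normalization, 3, 10 and 9 with the mean of all probe sets, 15, 17 and 23 at a limit of 0.5, 2, 7 and 7 at a limit of 2, and 38 each by the adjusted p alone. No named tissue difference changed sign.

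Rank products called 4 member probe sets in liver, 2 in WAT and 5 in BAT. With 1 mouse left out they called 0 to 5, 0 to 4 and 4 to 7. Nr0b2 in liver kept its call in 4 of 12 such runs, Hnf4a in 7, and each Esr1 probe set in WAT in 3. After quantile normalization they called 3 in liver (all lower), 0 in WAT and 3 in BAT (all higher), divided by the SD 1 in each, without dim probe sets 0 in liver, and without the 4 WAT arrays high in epididymal genes 0 in WAT. Limma called 0 members throughout, with a lowest adjusted p of 0.0590 in 1 fit of all 36 arrays, where 161 probe sets were higher and 238 lower in CAAM liver. With the mouse number as a replicate block, which does not pair these mice (correlations of -0.19 to 0.15), it also called 0 members, with a lowest adjusted p of 0.604.

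Differences in SD units changed sign for Nr0b2 in liver without CAAM mouse 7 (-0.27, in a range of -0.27 to 0.68 with 1 mouse left out), Pgr in liver after centring (-1.09) and Esr1 in WAT without CAAM mouse 6 (0.14, in a range of -0.82 to 0.14) or without the 4 WAT arrays (0.14). After quantile normalization and after centring they changed sign for Nr2c2 (0.28 and 0.15), Nr2c1 (0.12 and 0.15) and Nr1h4 (0.041 and 0.15) in WAT, and for Rarg (0.55 and 0.87) and Nr2f1 (0.67 and 0.80) in BAT. The cause was not tested.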

Other observations

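Whether a receptor's score followed the mouse from tissue to tissue was examined over the 12 mice. Of 114 correlations (38 genes and 3 pairs of tissues), 0 passed a permutation test after Benjamini-Hochberg adjustment, by Pearson's r or by Spearman's rho. The gene whose weakest correlation over the 3 pairs was highest was Nr3c2, the mineralocorticoid receptor, with r = 0.21 (BAT and WAT). Without the 2 mice farthest from the BAT median, r was -0.32 for that pair, so the value of 0.21 rests on those mice. For liver and WAT r was 0.23, and -0.35 without the 2 mice farthest from the liver median. The mice left out were chosen for each pair.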
